A study of Gallus gallus with 2 samples.

Results

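The genes described here are the fatty acid elongases ELOVL1, ELOVL2, ELOVL5, ELOVL6 and ELOVL7, the desaturases SCD and FADS2, the fatty acid synthase FASN, the acetyl-CoA carboxylase ACACA and the acetoacetyl-CoA synthetase AACS. They were chosen by gene symbol, with results of these data already known. All probe sets that the platform annotation gives these symbols were taken, which were 20 probe sets for 10 genes out of 13009 named genes, and 0 further probe sets named 1 of these genes together with another gene. RNA came from DT40, an established chicken B cell line of the bursa of Fabricius, either wild-type or PTIP deficient (genotype PTIP-/-/-); each is labelled as a clone, both were grown at the same temperature, and neither received a further treatment that the labels record. PTIP is encoded by PAXIP1, carries BRCT domains, and acts both in DNA damage signalling and in a complex that methylates histones. There was 1 array per genotype, 2 in all, so that the differences below come without a replicate, a test or an error between cultures, and the wild-type and PTIP deficient clones cannot be told apart from the genotypes they stand for.

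Cells make fatty acids from acetyl-CoA, which acetyl-CoA carboxylase turns into malonyl-CoA and fatty acid synthase joins into palmitate. Elongases of the endoplasmic reticulum then add carbon units, each with its own preferred chain length and saturation, and desaturases set double bonds. These roles were worked out mainly in mammals and yeast, and in birds the liver is the main site of fatty acid synthesis.

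The values are signal intensities in arbitrary units, scaled to a common average by the authors. A signal of 31.0 or more counted as measured. This floor is the value at percentile 40 of all signals, and 59.6% of the probe sets did so in wild-type and 60.4% in deficient cells. Probe sets for foreign reporter sequences reached 131.5, apart from 1 that read 5.54 in wild-type and 2675 in deficient cells, and a fold difference with 1 signal under 131.5 is therefore given as a bound against 131.5. The 27 probe sets for transcripts spiked into each hybridisation were all higher in the PTIP deficient array, by a median of 0.30 on the log2 scale (0.04 to 0.85). An array difference and a cell difference of that size cannot be told apart. A further 36 control probe sets, those for labelling, had a median log2 ratio of 0.08, taken without regard to the floor. The measured probe set of PAXIP1 read 1045 in wild-type and 593 in deficient cells. Where this probe set lies relative to the disrupted part of the gene was not settled here, so it is no check of the genotype.

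Of the 10 genes, 8 were measured in both arrays, and only ELOVL7 was at least 2-fold apart: in PTIP deficient cells its signal was at least 14.3-fold lower. AACS and ELOVL5 were lower by less than 2-fold, FASN was nearly equal in both arrays, and ELOVL1, ELOVL6, SCD and ACACA were higher by 1.17-fold to 1.36-fold with the deposited scaling. With the spiked transcripts set equal, ACACA was slightly lower in PTIP deficient cells instead and the others of these 4 remained above 0. ELOVL2 and FADS2 were under the floor in both arrays. By count, 1 of the 8 measured genes passed the 2-fold bar downward, beside 4.46% of all 9165 measured genes, and 0 of 8 passed it upward, beside 5.03% of all. Earlier results of the same contrast chose the genes, so nothing is read from these shares. The median log2 ratio (PTIP deficient minus wild-type) of the 8 genes was 0.07, beside 0.03 over all measured genes, with 4 of the 8 below 0.

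**Figure D1:**
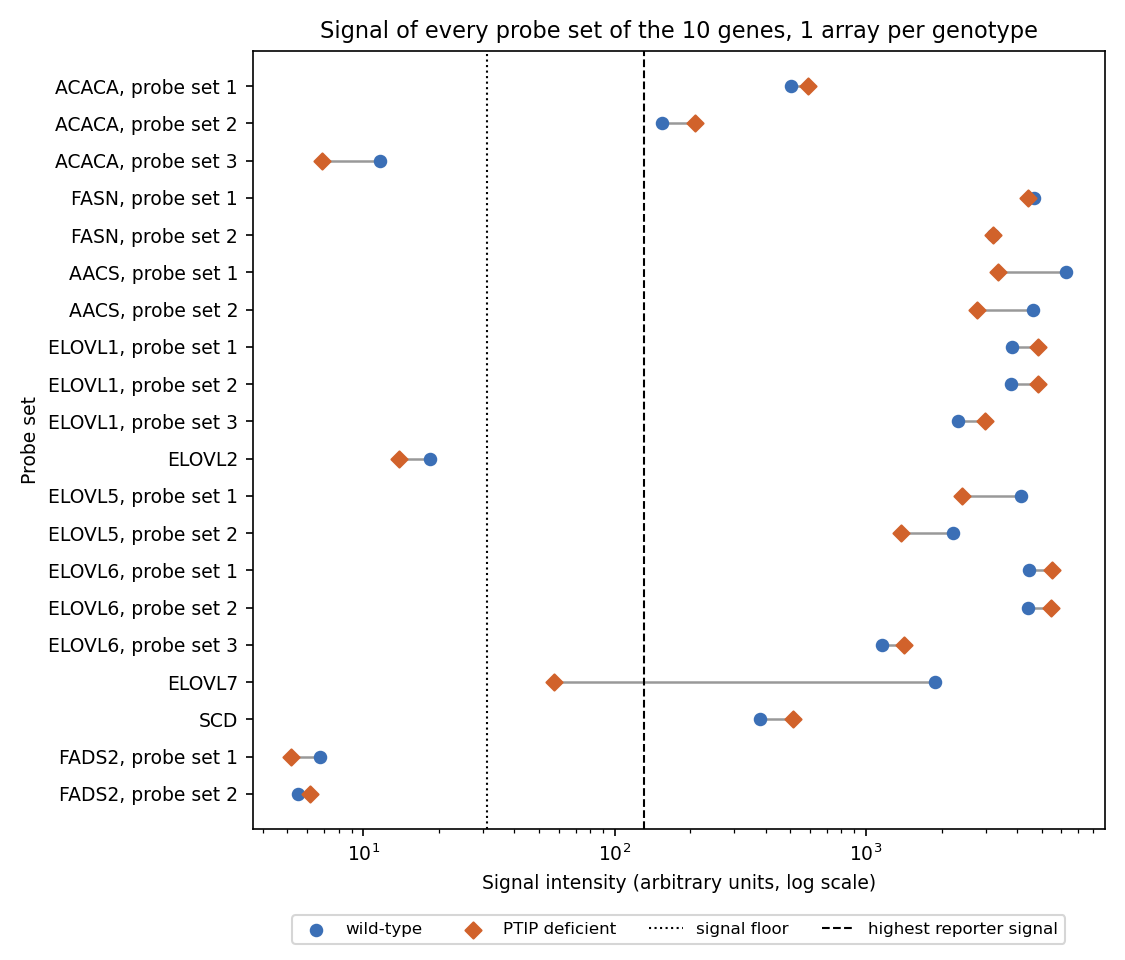
Signal intensity (log axis, arbitrary units) of each of the 20 probe sets in the wild-type array (circles) and the PTIP deficient array (diamonds), joined by a line; the dotted line is the floor of 31.0 and the dashed line the highest reporter signal of 131.5. ELOVL7 alone crosses the dashed line, and the probe sets of ELOVL2 and FADS2 lie left of the dotted line with 1 of the 3 ACACA probe sets.

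ELOVL7, an elongase that in mammals acts on long saturated acyl chains, was represented by 1 probe set. It read 1885 in wild-type cells, above 90.4% of all probe sets, and 57.4 in PTIP deficient cells. The wild-type array was thus far above the reporter signals, whereas the PTIP deficient array lay among them. Because the lower signal lay under 131.5, the difference is stated only as a bound, at least 14.3-fold, and no rank among the measured genes is given. No second probe set of ELOVL7 was there to repeat the value.

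The genes next to ELOVL7 on its chromosome were looked up in the GRCg7b RefSeq gene order after the ELOVL7 values were seen. Of the 3 protein-coding genes on each side, 5 had a probe set, and 3 of these were above 131.5 in both arrays. The direct neighbour DEPDC1B read 584 in wild-type and 334 in deficient cells (1.75-fold lower). NDUFAF2, which encodes an assembly factor of respiratory complex I, read 1193 and 1077 (1.11-fold lower), and SMIM15 read 372 and 234 (1.59-fold lower). These 3 were lower by less than 2-fold, where their wild-type signals would have allowed bounds of 4.44-fold, 9.07-fold and 2.83-fold to be seen, all smaller than that of ELOVL7. ERCC8, the direct neighbour on the other side, read 151 and 105, at least 1.14-fold lower. Its wild-type signal allowed no larger bound. The cyclic AMP phosphodiesterase gene PDE4D read 32.9 and 155, at least 1.18-fold higher. What lowered the ELOVL7 signal was not tested.

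ELOVL5, which in mammals elongates polyunsaturated fatty acids, was lower in PTIP deficient cells by both of its probe sets. The brighter probe set read 4138 in wild-type and 2417 in deficient cells, a 1.71-fold difference (log2 ratio -0.78). The second read 2232 and 1382 (log2 ratio -0.69), so that the ratios of the 2 probe sets lay within 0.08 of each other. For comparison, over 2855 genes with 2 probe sets that were above 131.5 in both arrays, the log2 ratios of the 2 probe sets differed with an SD of 0.32. That SD is a spread between probe sets on the same arrays and holds no error between cultures. The pairs include some whose identifiers differ only in their suffix, such as that of ELOVL6. Of all measured genes, 15.5% had a ratio farther from 0 than ELOVL5.

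ELOVL2, which in mammals extends longer polyunsaturated chains, had signals of 18.5 in wild-type and 13.8 in deficient cells with its single probe set. Both lay under the floor, and no ratio is given.

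ELOVL1 and ELOVL6 showed the opposite sign to ELOVL5 and almost no spread among their probe sets. ELOVL1, which in mammals makes saturated very long chain fatty acids for sphingolipids, read 3830 in wild-type and 4841 in deficient cells with its brightest probe set, 3794 and 4854 with the second, and 2336 and 2991 with the third. The 3 log2 ratios lay between 0.34 and 0.36, or 1.26-fold to 1.28-fold higher. ELOVL6, which elongates palmitate to stearate, read 4469 and 5522, 4417 and 5454, and 1156 and 1421, and its 3 log2 ratios lay between 0.30 and 0.31. In both genes, every probe set was brighter in the PTIP deficient array.

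For each of these genes, 2 of the 3 probe set identifiers differ only in their suffix, so these 2 are not independent designs. The ratios were of the same size as those of the spiked transcripts, and with these set equal the log2 ratio was 0.04 for ELOVL1 and 0.01 for ELOVL6. Of all measured genes, 45.3% had a ratio farther from 0 than ELOVL1 and 49.3% one farther from 0 than ELOVL6.

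**Figure D2:**
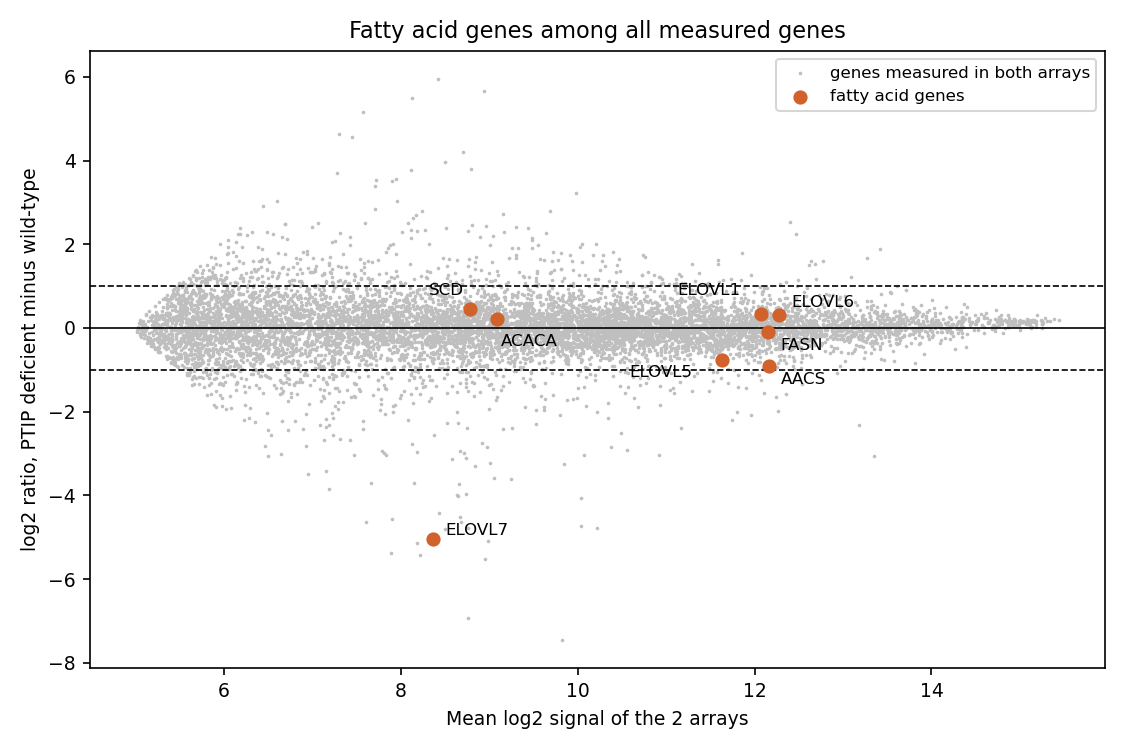
Log2 ratio (PTIP deficient minus wild-type) against the mean log2 signal of both arrays for each of 9165 genes measured in both arrays (grey) and for the 8 fatty acid genes among them (orange); dashed lines mark 2-fold. ELOVL7 is drawn at the ratio of its measured signals, of which the lower lies among the reporter signals, so that its distance from 0 is known only as a bound of 14.3-fold; AACS and ELOVL5 lie just inside the lower dashed line, and the other 5 lie between -0.09 and 0.44.

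The carboxylase and the synthase at the head of the pathway differed little. ACACA, whose product makes malonyl-CoA in the rate-limiting step, read 504 in wild-type and 588 in deficient cells with its brightest probe set (log2 ratio 0.22). A second probe set read 154 and 210 (log2 ratio 0.45). The third, at 11.7 and 6.85, was under the floor in both arrays. FASN read 4684 and 4414 with one probe set (log2 ratio -0.09) and 3199 and 3191 with the other (log2 ratio -0.0036). Of all measured genes, 83.7% had a ratio farther from 0 than FASN. The sign of ACACA depended on the scaling: it was -0.07 with the spiked transcripts set equal, a setting that moved the median of all genes by -0.30. FASN was then at -0.38, close to that median.

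AACS, which in the cytosol activates the ketone body acetoacetate for lipid synthesis, had the lowest ratio of the 8 genes after ELOVL7. Its probe sets read 6257 in wild-type against 3353 in deficient cells (1.87-fold lower, log2 ratio -0.90) and 4623 against 2776 (1.67-fold lower, log2 ratio -0.74). Both probe sets were dimmer in the PTIP deficient array. Of all measured genes, 11.7% had a ratio farther from 0. With their brightest probe sets, AACS was at -1.20 and ELOVL5 at -1.07 when the spiked transcripts were set equal, which puts both past 2-fold. That setting gave 3 of the 8 genes at least 2-fold lower, and over all measured genes 8.66% past the bar downward and 2.60% upward.

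SCD, the desaturase that places the first double bond in stearate and palmitate, had 1 probe set, which read 379 in wild-type and 515 in deficient cells. That is a log2 ratio of 0.44, or 1.36-fold higher. It was 0.15 with the spiked transcripts set equal. FADS2, the desaturase of the first step of polyunsaturated fatty acid synthesis in mammals, had signals of 6.71 and 5.18 with one probe set and of 5.52 and 6.13 with the other. All 4 signals lay far under the floor.

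**Figure D3:**
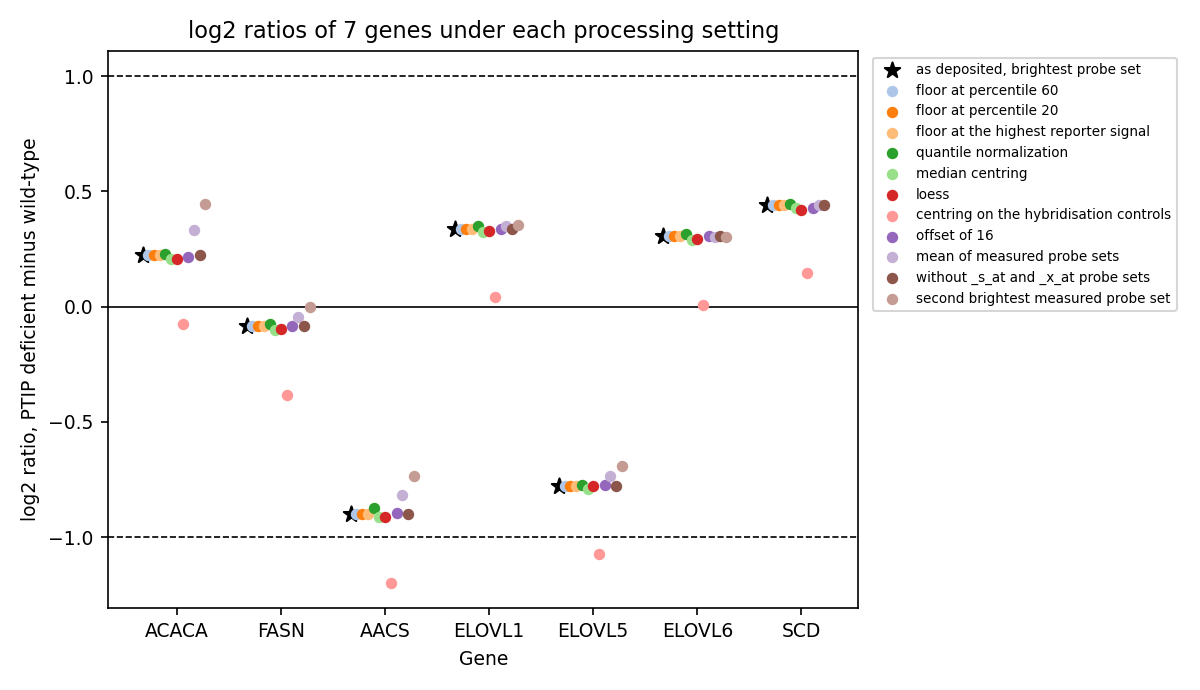
Log2 ratios (PTIP deficient minus wild-type) of 7 of the measured genes under the deposited scaling with the brightest probe set (stars) and under the processing alternatives (coloured circles); ELOVL7 lies outside the plotted range. AACS and ELOVL5 lie below 0 in every setting plotted, and centring on the hybridisation controls lowers all 7 genes by 0.30 and moves ACACA below 0.

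Further genes of lipid metabolism were described by lists fixed by symbol, likewise with earlier results of these data known. Their counts past 2-fold use the floor of 31.0, so a gene can be counted although 1 or both of its signals lay under 131.5, and they stand beside 4.46% downward and 5.03% upward over all measured genes. The other elongases and desaturases were mostly dim. Of 8 genes on the array, 5 were measured in both arrays, and 0 passed the 2-fold bar downward and 1 upward, with a median log2 ratio of 0.32. That one was FADS1, a desaturase of polyunsaturated chains whose gene lies next to FADS2, at 56.3 in wild-type and 132 in deficient cells. The higher of these only just passed the reporter signal. A second probe set of FADS1 read 28.2 and 157, at least 1.19-fold higher in deficient cells. FADS6 had signals of 41.3 and 71.5, both under 131.5. DEGS1, the desaturase that completes ceramide, read 890 and 1112 (log2 ratio 0.32), and SCD5 read 399 and 411 with its brightest probe set (log2 ratio 0.04). With the spiked transcripts set equal these were 0.02 and -0.25. The other measured probe sets of SCD5 were higher in deficient cells with the deposited scaling. They read 265 and 451 (log2 ratio 0.76) and 162 and 223 (log2 ratio 0.46). ELOVL3 and DEGS2 were under the floor in both arrays, and ELOVL4 was under it in wild-type cells, at 24.6.

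A further list holds the enzymes that complete each elongation cycle together with the elongases, and the cytochrome b5 system that supplies electrons to the desaturases. Of its 12 genes, 9 were on the array, while HSD17B12, TECR and CYB5R3 had no matching probe set. HACD4 and TECRL were under the floor in both arrays, so the cycle itself was measured only through HACD genes. Of 7 measured genes, 0 were at least 2-fold apart in either direction, and the median log2 ratio was -0.03. The cytochrome b5 reductase family member CYB5R1 had the largest ratio. It read 3023 in wild-type and 5507 in deficient cells (1.82-fold higher), and its 3 probe sets had log2 ratios from 0.85 to 0.92. CYB5R2 had a log2 ratio of -0.32, CYB5A, the microsomal cytochrome b5, one of -0.19, and the dehydratase gene HACD1 had signals of 34.8 and 41.0, neither of them above 131.5. HACD2 and HACD3 were brighter. With their brightest probe sets, HACD2 read 2518 in wild-type and 2213 in deficient cells, and HACD3 read 5834 and 5824. Over the measured probe sets the log2 ratios were -0.19 to 0.04 for HACD2 and -0.52 to -0.0025 for HACD3.

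OXCT1, BDH1A and BDH2, the genes of ketone body metabolism in the list of ketone body and HMG-CoA genes, had higher signals in PTIP deficient cells. The list also holds thiolases and genes of the mevalonate pathway. All 8 of its genes on the array were measured; 6 were above 0, beside 52.6% of all measured genes, 2 passed the 2-fold bar upward, beside 5.03% of all, and 0 downward, and the median log2 ratio was 0.53. OXCT1, which returns acetoacetate to acetoacetyl-CoA in mitochondria, read 3897 in wild-type and 8571 in deficient cells with its brightest probe set. The other 3 probe sets read 895 and 2252, 739 and 1629, and 360 and 981. All 4 probe sets were more than 2-fold brighter in the PTIP deficient array, with log2 ratios from 1.14 to 1.45.

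The 2 genes past the bar were OXCT1 and BDH2. BDH2, a dehydrogenase gene, read 408 and 865 with 1 probe set (2.12-fold higher). BDH1A read 7518 and 11065 (log2 ratio 0.56) and the peroxisomal thiolase gene ACAA1 read 132 and 216 (log2 ratio 0.71). ACAT1, the mitochondrial acetoacetyl-CoA thiolase listed with acetyl-CoA supply, read 1958 and 4115 (2.10-fold higher). With the spiked transcripts set equal, OXCT1 was at 0.84, BDH2 at 0.79 and ACAT1 at 0.77, all under 2-fold but still higher. AACS, the cytosolic route of the same ketone body, had the opposite sign in that setting and in the deposited one.

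Among the genes that supply acetyl-CoA and malonyl-CoA, 12 of 14 on the array were measured, 1 passed the 2-fold bar downward and 1 upward, and the median log2 ratio was 0.21. The higher one was ACAT1. The lower one was MECR, a reductase of mitochondrial fatty acid synthesis, at 234 in wild-type and 84.1 in deficient cells, at least 1.78-fold lower. ACSS2, which activates acetate, read 213 and 395 with its brightest probe set (log2 ratio 0.89), and its other probe sets were under 131.5 in both arrays. ACSF3, which activates malonate, was at least 1.27-fold higher.

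The NADPH that reduces each new carbon unit comes from the pentose phosphate pathway and from dehydrogenases such as IDH1. Of 4 measured genes of this list, 1 passed the 2-fold bar upward and 0 downward, and the median log2 ratio was 0.37. IDH1 read 1491 in wild-type and 3538 in deficient cells with 1 probe set (2.37-fold higher), and its log2 ratio of 1.25 was 0.95 with the spiked transcripts set equal. IDH2 was at 0.38, TALDO1 at 0.36 and PGD at 0.33, ratios of about the size seen in the spiked transcripts. With the spiked transcripts set equal, IDH2 was at 0.09, TALDO1 at 0.06 and PGD at 0.03, all close to 0. With the deposited scaling all 4 were above 0, beside 52.6% of all measured genes.

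Of the regulators of lipogenesis, few were far apart. Of 20 measured genes, 1 passed the 2-fold bar downward and 2 upward, and the median log2 ratio was 0.14. SREBF2, a sterol-regulated transcription factor, read 3107 in wild-type and 2243 in deficient cells (log2 ratio -0.47). INSIG1, which retains that factor in the endoplasmic reticulum, read 9202 and 6609 (log2 ratio -0.48, and -0.62 to -0.22 over 3 probe sets). SREBF1, the related activator of fatty acid genes, had signals of 78.4 and 79.7, neither of them above 131.5. The oxysterol receptor gene NR1H3 read 2751 and 3017, and its 2 probe sets had log2 ratios of opposite sign, 0.13 and -0.09. PRKAA1, a catalytic subunit of the kinase that inhibits acetyl-CoA carboxylase, read 467 and 262 (log2 ratio -0.84, and -1.13 with the spiked transcripts set equal). Of the 22 genes on the array, 2 reached the floor only in deficient cells and 0 only in wild-type cells. Over all 13009 named genes these counts were 794 and 721. The 2 genes were PRKAA2, with signals of 8.10 and 73.9, and THRSP, with 12.7 and 126, all under 131.5. The measured genes past the bar upward, PPARA and PPARG, had signals from 36.1 to 89.7, all under 131.5. Both were under 2-fold with the spiked transcripts set equal (log2 ratios 0.90 and 0.74).

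The lower one was TRIB2, a pseudokinase of a family that directs acetyl-CoA carboxylase to degradation in mouse fat. It read 1909 in wild-type and 68.7 in deficient cells and was at least 14.5-fold lower. Its second probe set read 636 and 64.4. TRIB2 entered the list with its low value already known. Any effect on the carboxylase was not tested, since degradation acts on the protein and the arrays measure RNA.

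**Figure D4:**
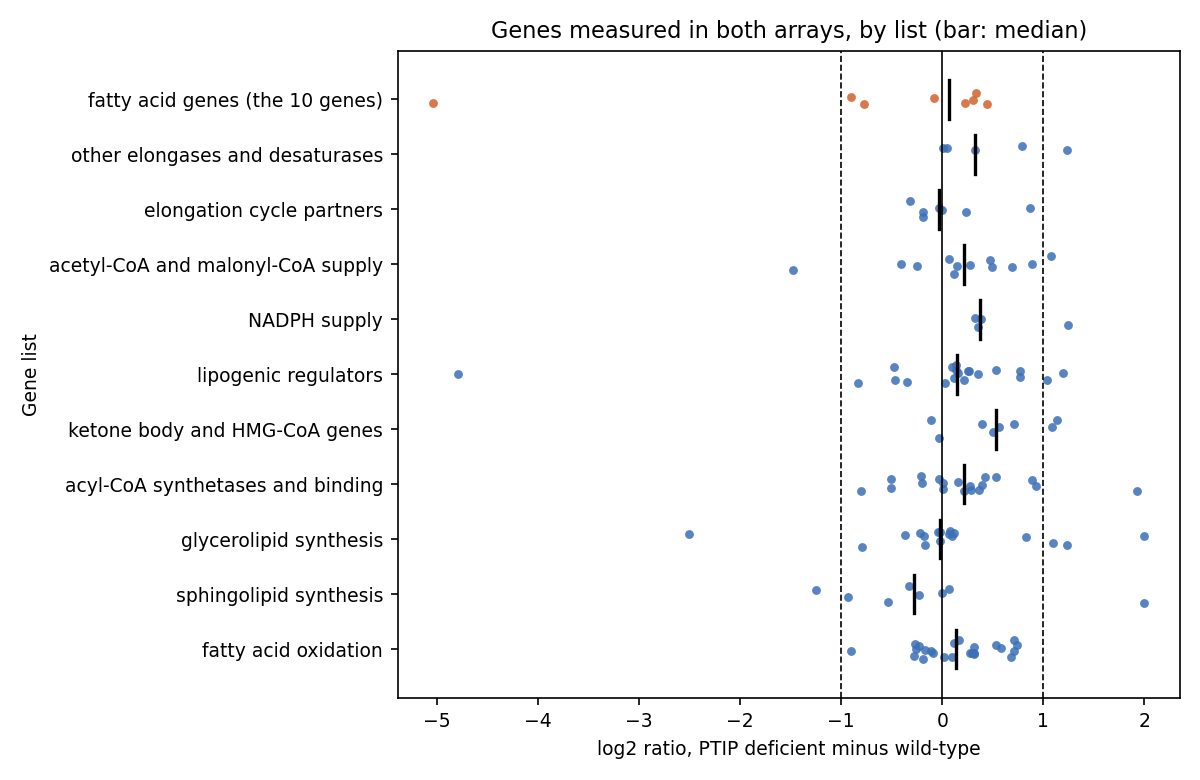
Log2 ratios (PTIP deficient minus wild-type, horizontal axis) of the genes measured in both arrays, for the 10 fatty acid genes (orange) and each of 10 further lists of lipid genes (blue); black bars are medians, dashed lines mark 2-fold, and the vertical scatter within a list has no meaning. The medians lie between -0.28 for sphingolipid synthesis and 0.53 for ketone body and HMG-CoA genes.

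Genes that use the finished fatty acids had both signs. In glycerolipid synthesis, 17 genes were measured, 1 passed the 2-fold bar downward and 3 upward, with a median log2 ratio of -0.02. LPCAT2, which reacylates lysophospholipids and makes platelet-activating factor, read 3422 in wild-type and 603 in deficient cells (5.68-fold lower) with one probe set and 793 and 129 with the other. The second pair is at least 6.03-fold apart, its lower signal being under 131.5, and the log2 ratio of LPCAT2 was -2.51 with the first. MBOAT1, a lysophospholipid acyltransferase, read 160 and 638, brighter in deficient cells, and its second measured probe set read 150 and 297 (log2 ratio 0.99). For LPIN1, a phosphatidate phosphatase, the bound was 2.08-fold higher, and for AGPAT3 it was 1.67-fold. With the spiked transcripts set equal, LPIN1 was at 0.94 and AGPAT3 at 0.80 on the log2 scale, under the bar, and with the floor at the highest reporter signal MBOAT1 was the only one of the 3 left.

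In sphingolipid synthesis, 6 of 8 measured genes were below 0, beside 47.4% of all measured genes, though SPTLC2, 1 of the 6, was nearly at 0, and the median log2 ratio was -0.28. Of the 8, 1 passed the 2-fold bar downward and 1 upward, beside 4.46% and 5.03% of all. UGCG, the glucosylceramide synthase, read 332 in wild-type and 139 in deficient cells (2.38-fold lower), while its second probe set read 144 and 76.4, at least 1.09-fold lower. SGMS1, a sphingomyelin synthase, had a log2 ratio of -0.93, or -1.23 with the spiked transcripts set equal, and the ceramidase ASAH1 one of -0.54. CERS6, a ceramide synthase, was the higher one, with signals of 31.2 and 124 that were both under 131.5. Of the 14 genes on the array, 3 reached the floor only in deficient cells and 1 only in wild-type cells. Over all 13009 named genes these counts were 794 and 721. All signals of the 3 genes and of the 1 gene were under 131.5. With the floor at percentile 20, the median log2 ratio was -0.0008. In that setting more than the 8 genes were measured. Of these, 4 passed the bar upward and 2 downward, beside 8.28% and 7.47% of all genes measured there. The signals of the genes added by the lower floor were all under 131.5. The median of this list thus depended on the floor.

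Among acyl-CoA synthetases, binding proteins and thioesterases, 19 genes were measured, 1 passed the 2-fold bar upward and 0 downward, with a median log2 ratio of 0.22. ACBD7, an acyl-CoA binding protein, read 314 in wild-type and 1190 in deficient cells (3.79-fold higher). The long-chain synthetase ACSL1 was at 0.93 on the log2 scale, ACSBG2 at 0.89, and ACSL4, which prefers arachidonate, at -0.80. Fatty acid oxidation, the breakdown of fatty acids, had 24 measured genes, 0 at least 2-fold apart in either direction and a median log2 ratio of 0.14. HADH, a dehydrogenase of the oxidation cycle, was at -0.90 (7570 in wild-type and 4053 in deficient cells), ACAD11 at 0.74, and the auxiliary enzymes ECI1 and DECR2 at 0.71 each. With the spiked transcripts set equal, HADH was at -1.20 and ACSL4 at -1.10 with its brightest probe set, both past 2-fold. With the deposited scaling, the 4 measured probe sets of ACSL4 had log2 ratios from -0.80 to -0.44, the brightest being the farthest from 0.

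Cell type markers differed between the same arrays. Of 15 B cell genes on the array, 12 were measured. Of these, 11 were below 0, beside 47.4% of all measured genes, and 6 were at least 2-fold lower, beside 4.46% of all. In 8 of the 12, both signals were at or above 131.5. Of these 8, 3 were at least 2-fold lower, beside 2.79% of all genes with both signals that high. The summed signal of the list was 75049 in wild-type and 17792 in deficient cells. IGLL1 gave 29961 and 3619 of this sum and JCHAIN 11947 and 68.5, while CXCR5 had a log2 ratio of -0.07 and PAX5 had signals of 96.7 and 122. The 6 measured probe sets of IGLL1 had log2 ratios from -4.23 to -0.30. BLK, CD180 and LY86 were under the floor in both arrays. Of 7 measured T cell genes, 2 were at least 2-fold higher, beside 5.03% of all. These were CD8A (78.2 and 563, at least 4.28-fold higher) and CD5 (73.3 and 303, at least 2.30-fold higher), both under 131.5 in wild-type cells. Of the 7 T cell genes, 5 were above 0, beside 52.6% of all measured genes, and 2 were below 0. Those below 0 were ZAP70 (log2 ratio -0.24) and CD3E (-0.03), and BCL11B was at 0.04, all with signals under 131.5. GATA3 and CD2 reached the floor only in wild-type cells, likewise with signals under 131.5. The summed signal of the 12 on the array was 9650 and 17577, of which CD3D gave 8831 and 15919. LCK, CD4 and CD28 were under the floor in both arrays. Of the hepatocyte and adipocyte genes, ALB had signals of 59.5 and 46.2, ADIPOQ 45.6 and 27.7 and LPL 20.8 and 21.2. APOA1 read 595 and 401, and CIDEC read 31.9 and 136, at least 1.03-fold higher in deficient cells. The summed signal of the 11 on the array was 11731 and 16817, of which TF gave 10670 and 15925. The 2 measured probe sets of TF had log2 ratios of opposite sign, 0.58 and -0.76. No macrophage gene of the list was above 131.5 in either array (summed 320 and 438). The summed signal was 384 and 369 for the erythroid and thrombocyte genes and 425 and 1540 for the fibroblast and epithelial genes, in which LUM had signals of 6.18 and 1019. The part of these marker differences in the values of the fatty acid genes was not tested. A lower signal in all cells and a loss in some of the cells cannot be told apart in these bulk samples.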

How the data were processed

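Total RNA of 2 DT40 samples, 1 per genotype, was hybridised to the Affymetrix chicken genome array. Per the submitters' processing notes the authors used GCOS, with version and algorithm not given in the sources used here. The deposited values are linear intensity values, 1 per probe set, for 38535 probe sets. Both arrays had the same mean of 499.9 over percentiles 2 to 98, which shows scaling to a shared target. The 96 control probe sets were left out. Gene names are those of the platform annotation (27178 probe sets with 1 symbol, 177 with several, which were not named, and 11180 with none), and all 10 genes have the same symbol in the GRCg7b RefSeq table. A log2 ratio, PTIP deficient minus wild-type, was formed where both signals reached the floor. Each gene was represented by its brightest probe set (highest mean of the log2 signals).

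The genes and lists were chosen with earlier results of these data known. Listed symbols were matched exactly, 229 of 286 to a probe set. Named genes are the 10 genes, up to 4 genes with the largest absolute ratio in each of 10 lipid lists, SREBF1, SREBF2, NR1H3, INSIG1 and PAXIP1. MLXIPL, also fixed, did not match. Neighbouring genes, the marker genes named and ELOVL3, ELOVL4, DEGS2, HACD2, HACD3, PRKAA2 and THRSP were added after their values were seen. With 1 array per genotype there is no test, and the number of arrays limits the precision. Alternatives changed the floor, scaling, offset and probe set choice. The calculation was tested on simulated data. Python 3.11.15 and statsmodels 0.14.6 (loess) were used. Sequences were not used here.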

Additional observations from a re-analysis of the deposited data

How the results depend on the processing

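The count of fatty acid genes at least 2-fold lower was 1 with the settings used throughout, and it depended on ELOVL7. It was 0 with the floor at percentile 60 and 0 with the floor at the highest reporter signal, since the PTIP deficient signal of ELOVL7 then fell under the floor, and 0 with the second brightest probe set, which ELOVL7 lacks. It was 3 with the log2 ratios centred on the hybridisation controls, which lowered every ratio by the same amount. The count at least 2-fold higher was 0 in each of the 11 alternatives. AACS kept its sign in 11 of 11 alternatives (-1.20 to -0.74), as did ELOVL5 (-1.07 to -0.69), FASN (-0.38 to -0.0036), ELOVL1 (0.04 to 0.36) and ELOVL6 (0.01 to 0.32), and SCD did so in all 10 that gave a value (0.15 to 0.45). ACACA kept its sign in 10 of 11 (-0.07 to 0.45). ELOVL7 had a value in 8 and was below 0 in each; its size is only a bound. Of 330 medians and counts past 2-fold of the other lipid lists under the alternatives, 286 stayed close to the value given and 44 moved, 11 of these with the centring on the hybridisation controls. No paired analysis was possible because there was 1 array per genotype, and leaving out a replicate was not possible for the same reason.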
